A study of Mus musculus with 30 samples.

Results

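GFP-high mesenchymal cells of the mouse small intestine were compared with unsorted cells of the same tissue, across all genes of the table that holds both groups. The comparison was chosen by the sample labels and rests on 5 libraries. Of the 30 labelled samples, 29 have a column in the 14 tables of the series. The 5 are 3 GFP-high libraries (replicates 1 to 3) and 2 unsorted libraries (replicates 2 and 3), with 15850 genes listed. Unsorted replicate 1 was not analysed here.

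The study profiled sorted mesenchymal cells and unsorted cells of the colon and the small intestine by QuantSeq, a method that reads the 3' end of each transcript, so that 1 read stands for 1 transcript whatever its length. All groups used here came from normal C57BL/6 mice of the genotype ColVI-cre, Rosa mTmG, and the cells were freshly isolated. In the mTmG reporter, Cre switches a cell and its descendants for good from a red to a green fluorescent protein, so GFP marks cells that expressed, or whose ancestors expressed, Cre under the collagen VI promoter, and not collagen VI expression on the day of sorting. The labels call the GFP-high cells intestinal mesenchymal cells and the unsorted cells intestinal cells. GFP-low and GFP-negative cells of the small intestine, and GFP-positive and unsorted cells of the normal colon, 3 libraries each, serve below to place the GFP-high cells. The sources used here give no age, sex, pooling of animals or sort gate. Nothing in the labels says that replicates came from separate animals, so the p-values measure the spread between these samples, which may be technical.

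The mesenchyme under the intestinal epithelium holds several kinds of cell. Telocytes, with high Pdgfra, lie against the epithelium and secrete BMP proteins, which favour differentiation along the villus. Fibroblasts marked by Cd34 lie deeper and secrete Wnt enhancers and BMP antagonists that maintain crypt stem cells, while smooth muscle cells, myofibroblasts and pericytes carry a contractile apparatus. All of them build matrix.

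Estimated depth was 1376000 to 2786000 reads in the GFP-high and 2836000 to 3525000 in the unsorted libraries, and the 10 most abundant genes took 5.21 to 6.68% and 11.6 to 12.1% of the counts. The lowest correlation of log2 values across genes was 0.849 between GFP-high libraries and 0.911 between the unsorted pair, while the highest between the groups was 0.637. Genes of hepatocytes differed widely between GFP-high libraries, with GFP-high library 2 the lowest, and their values are given in full below. In bulk samples fewer cells of a type and less RNA per cell cannot be told apart, and this holds for every cell marker described here.

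Of 13369 genes with a mean of at least 10 normalised counts in 1 of the groups, 2300 (17.2%) passed an adjusted p of 0.05 in limma. Of these, 820 (6.13% of the genes tested) were higher and 1480 (11.1%) lower in GFP-high cells, and the median log2 fold change of all genes tested was -0.14. Every GFP-high library lay above both unsorted libraries in 2638 genes (19.7%) and below both in 3655 (27.3%). In the authors' deposited table, 835 genes had an FDR under 0.05, 260 higher and 575 lower in GFP-high cells. Of these, 758 were also called here, all in the same direction. The calls rest on both unsorted libraries, since limma called 0 genes without unsorted library 2 (2469 had an unadjusted p under 0.05) and 2 without unsorted library 3 (2578 unadjusted), the Paneth cell defensins Defa37 and Defa21, named after their values were seen. In both of these fits all 820 higher genes kept their sign, as did all lower genes that still passed the filter (1430 without library 2 and 1425 without library 3). Without GFP-high library 3, 423 genes were higher, and with the 4 small intestine groups in 1 fit 1081 genes were called, 538 of the 820 higher genes among them and 479 of the 812 lower genes that this fit holds. Without the trend and robust steps of the variance model 449 of the 820 higher genes stayed called. Among them were 3 of 8 genes of the contractile list, 5 of 11 of the basement membrane list and 5 of 8 of the BMP ligand list, described below. Likewise 1 of 5 genes of the FGF, HGF and IGF list, 1 of 4 Wnt inhibitors, 0 of 3 Hedgehog genes, 2 of 5 matrix proteases, 3 of 6 cytokines and 2 of 6 complement genes stayed called, as did 7 of 13 lower dissociation genes and 11 of 17 lower cell cycle genes. The fit of 4 groups takes genes listed in all tables of the small intestine and leaves out the other lower genes.

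**Figure D1:**
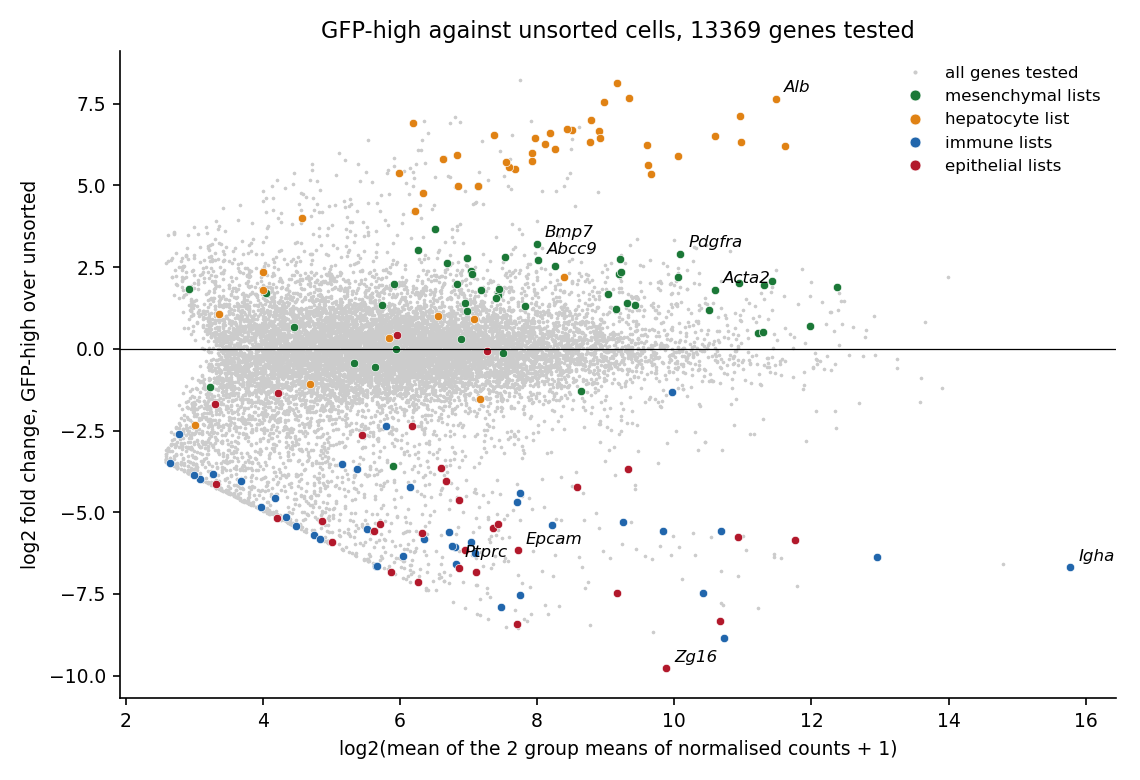
Mean normalised count of each tested gene over both groups (horizontal axis, log2 of the count plus 1) against its log2 fold change, GFP-high over unsorted cells (vertical axis), with 4 groups of lists in colour and all 13369 tested genes in grey. Most mesenchymal genes, such as Pdgfra (2.91), lie above 0, with exceptions such as Thy1. Most immune and epithelial genes, such as Igha (-6.68) and Zg16 (-9.78), lie below it. Hepatocyte genes such as Alb (7.65) form the group at the top, although Cebpa of that list was lower.

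The marker genes Pdgfra, Abcc9 and Acta2 were examined first, against unsorted cells only. None of these 3 is among the genes, listed below, that were also higher than in both GFP-negative and GFP-low cells. Pdgfra, the alpha receptor of PDGF and a marker of intestinal fibroblasts and telocytes (chromosome 5, 75152292 to 75198215, mm10), stood at 1489, 1493 and 2796 normalised counts in the GFP-high libraries and at 215 and 275 in the unsorted ones. Every GFP-high library lay above every unsorted library, and the log2 fold change was 2.91 ± 0.38 (SE, limma adjusted p = 0.00199). Abcc9, the sulfonylurea receptor subunit of a potassium channel and a pericyte marker (chromosome 6, 142587862 to 142702315), had 330, 270 and 763 against 52 and 72 normalised counts, a log2 fold change of 2.72 ± 0.47 (SE, limma adjusted p = 0.0054). Acta2, the smooth muscle actin of contractile cells (chromosome 19, 34241090 to 34255336), had 2358, 1508 and 3279 against 421 and 991 normalised counts. Its log2 fold change of 1.81 ± 0.47 (SE, limma adjusted p = 0.0298) was the smallest of these 3 genes, and again the groups did not overlap.

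Checked against general mesenchymal genes, the GFP-high cells carried the labelled cell type's markers, with an exception. Of 12 tested genes of 13 listed, 10 were higher and 1 was lower in GFP-high cells, with a median log2 fold change of 1.98. Col1a1, a chain of the main fibrillar collagen, rose by 2.07 on the log2 scale, the proteoglycan genes Dcn and Lum by 1.89 and 2.18, and the forkhead regulators Foxf1 and Foxf2 by 2.29 and 2.62. Sparc, a matrix glycoprotein, did not pass, with a log2 fold change of 0.49. Thy1, a surface protein of many fibroblasts and also of T cells, had 11, 6 and 8 normalised counts in GFP-high cells against 93 and 125 in unsorted cells. It fell by 3.58 on the log2 scale and had 8, 3 and 0 normalised counts in GFP-low cells and 93, 35 and 20 in GFP-negative cells. All 10 higher genes stayed called with the 4 groups in 1 fit. Summed over the list, these genes took 1.13 to 1.53% of counts in GFP-high and 0.29 to 0.477% in unsorted libraries. The sums were larger in the other sorts, at 1.86 to 2.05% in GFP-low and 2.03 to 3.06% in GFP-negative libraries. Against GFP-negative cells 2 of 13 tested genes were higher and none lower (median -1.06), and against GFP-low cells none passed (median -0.38).

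The genes of collagen VI, whose promoter drives the Cre, rose together. Col6a1 had 1099, 1909 and 3379 normalised counts in GFP-high cells and 170 and 523 in unsorted cells, a log2 fold change of 2.68 ± 0.58 (SE, limma adjusted p = 0.0139). Col6a2 rose by 3.01, Col6a3 by 2.04, Col6a4 by 1.95 and Col6a5 by 2.32 on the log2 scale, so that 5 of the 6 tested genes of this list were higher. Col6a1 did not separate the GFP-high cells from the other sorted cells. It stood at 3562, 1949 and 3157 normalised counts in GFP-low cells and at 2749, 1841 and 1109 in GFP-negative cells, which overlap the GFP-high values. The sixth gene, Procr, encodes the surface receptor CD201, which the title of the study names. Procr stood at 201, 239 and 317 normalised counts in GFP-high cells and at 239 and 220 in unsorted cells, overlapping levels with a log2 fold change of 0.11. It was at 24, 89 and 10 in GFP-low and at 27, 0 and 40 in GFP-negative cells, below every GFP-high library, although neither difference passed (log2 fold changes 3.09 and 4.57). No gene of this list passed against either sort. Every GFP-high library lay above every GFP-negative one in 4 of the 6 genes, Procr among them (7.9% of all genes tested). Against GFP-low cells this held for 2 of the 6 (7.5% of all), and 1 lay below.

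Telocyte genes were higher in GFP-high cells. Of 15 tested genes of 17 listed, 11 were higher and none was lower, the median log2 fold change was 2.39, and all GFP-high libraries lay above both unsorted ones in 14. Summed over the list, these genes took 0.228 to 0.381% of the counts in GFP-high libraries and 0.0463 to 0.0591% in unsorted ones. Bmp7, a BMP ligand, had 413, 533 and 429 normalised counts in GFP-high cells against 59 and 39 in unsorted cells. This log2 fold change of 3.22 ± 0.34 (SE, limma adjusted p = 0.00135) came with a narrow spread over the GFP-high libraries. Bmp5, a further ligand of the family, had 819, 970 and 1301 against 144 and 153 normalised counts, a log2 fold change of 2.76. Sox6, a transcription factor of telocytes, had 110, 184 and 371 against 21 and 37, and Cxcl14, a chemokine, had 279, 374 and 320 against 41 and 49 normalised counts. Their log2 fold changes were 2.77 and 2.82, with no overlap of the groups. Foxl1, the forkhead factor that is often used to define telocytes, was near the detection limit at 15, 23 and 36 against 6 and 7 normalised counts, and its log2 fold change of 1.69 did not pass (limma adjusted p = 0.131). Of the 11 higher telocyte genes, 8 stayed called without GFP-high library 3 and 7 with the 4 groups in 1 fit.

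The ligands and secreted inhibitors of the BMP pathway were then followed by role. Of 13 tested genes of 14 in the list of BMP and GDF ligands, 8 were higher (Bmp1 to Bmp7 and Inhbb). None was lower, and the median log2 fold change was 1.54. Among these 8, Bmp1 encodes a protease and Inhbb an activin subunit, so that neither is a BMP ligand. Bmp3, an atypical member that can dampen BMP signalling, had 102, 99 and 207 normalised counts in GFP-high cells against 18 and 12, a log2 fold change of 3.04. Bmp4 had 813, 704 and 1081 against 114 and 217, a change of 2.43, and Bmp2 had 170, 141 and 211 against 72 and 80, a change of 1.17 close to the threshold (limma adjusted p = 0.0483). Gdf15, a stress-induced member, did not pass, with a log2 fold change of -0.77. Of the 8 higher genes of this list, 5 stayed called without GFP-high library 3, and 5 in the fit of 4 groups.

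Among 9 tested BMP antagonists, 4 were higher and 1 was lower. Chrd, which binds BMP dimers outside the cell, had 138, 132 and 227 normalised counts against 14 and 27, a log2 fold change of 2.98, and Nbl1, Twsg1 and Fstl1 rose by 2.64, 2.46 and 1.71. Grem1, the antagonist secreted below the crypts, did not differ from unsorted cells at 114, 127 and 197 against 154 and 145 normalised counts (log2 fold change -0.07). Its level was 1168, 737 and 1027 in GFP-negative cells, where it passed as lower in GFP-high cells by a log2 fold change of -2.75. The lower antagonist was Sostdc1, at 0, 0 and 1 against 8 and 22 normalised counts.

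Among the Wnt genes, 2 of 5 tested ligands were higher. Wnt5a, a ligand of the β-catenin-independent branch, had 215, 146 and 304 normalised counts against 45 and 35, and Wnt4 had 173, 258 and 206 against 45 and 27. The log2 fold changes were 2.39 and 2.55, and the groups did not overlap. Wnt2b, a ligand that supports crypts, did not pass at 65, 76 and 121 against 33 and 67 (0.83). Of 7 tested secreted Wnt inhibitors, 4 were higher, namely Sfrp1 (1.84), Dkk2 (1.67), Dkk3 (2.06) and Apcdd1 (1.18), of which 2 stayed called without GFP-high library 3. None of the 3 R-spondins tested, which enhance Wnt signals, passed, with Rspo2 at 28, 39 and 30 normalised counts against 14 and 21 (0.86). Of the Hedgehog list, 3 of 11 tested genes were higher, among them the receptor Ptch1 (1.46) and the decoy receptor Hhip (1.83). The target Gli1 did not pass at 0.45, the epithelial ligand Ihh was at 0 in all GFP-high libraries and lower, and the coreceptor Cdon was lower at -4.19. Without GFP-high library 3, none of the 3 higher Hedgehog genes passed.

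Other growth factor genes changed in part. Igfbp5, an insulin-like growth factor binding protein, had 1337, 2931 and 3405 normalised counts against 188 and 356, a log2 fold change of 3.19. Igf1, Igfbp3, Igfbp4 and Igfbp7 were the other 4 higher genes of 13 tested in the FGF, HGF and IGF list, and 3 of the 5 stayed called without GFP-high library 3. Ltbp2, a protein of elastic microfibrils named like the TGF-β binding proteins, had 181, 346 and 130 against 29 and 14 normalised counts, a change of 3.25. Tgfb3 rose by 2.02 on the log2 scale. Tgfb1 had 10, 11 and 6 against 40 and 50 normalised counts and fell by 2.23 (limma adjusted p = 0.0378). It did not pass without GFP-high library 1 or 3, with the replicate block or in the fit of 4 groups. Of the PDGF list only the receptors Pdgfra and Pdgfrb (1.31) passed among 6 tested, and of the EGF family ligands only Ereg (2.02) among 5.

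Contractile genes were higher, but those of mature smooth muscle in part only. Of 15 tested genes of 16 listed, 8 were higher and none was lower, with a median log2 fold change of 1.42. Tagln, an actin-binding protein of smooth muscle, had 762, 1064 and 1165 normalised counts in GFP-high cells against 171 and 213 in unsorted cells. Tpm2, a tropomyosin, had 939, 1329 and 660 against 202 and 181, and Myh11, the smooth muscle myosin heavy chain, had 234, 162 and 281 against 51 and 76. Their log2 fold changes were 2.36, 2.29 and 1.80, and in each the groups did not overlap. Myl9, Cald1, Synpo2, Hhip and Acta2 were the other higher genes. Cnn1, a calponin of differentiated smooth muscle, had 159, 97 and 137 against 107 and 101 (0.30), Des, the muscle intermediate filament, had 316, 88 and 142 against 219 and 136 (-0.12), and the enteric actin gene Actg2 had 45, 28 and 28 against 38 and 52 (-0.43). These 3 overlapped between the groups and did not pass. Of the 8 higher genes, 4 stayed called without GFP-high library 1, 3 without GFP-high library 3 and 7 in the fit of 4 groups.

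Contractile genes of smooth muscle are classic targets of serum response factor. The promoters of the higher genes of the contractile list were searched on both strands for the motif of this factor, the CArG box. The RefSeq windows (GRCm38.p6) ran from 250 bases before to 50 bases after the gene start. Among all 32851 windows, 535 (1.63%) hold the box. Of the 8 higher genes of the list, which include the Hedgehog decoy receptor Hhip, 6 have such a window, and 1 of these windows holds the box. That window belongs to Myl9, the regulatory light chain of smooth muscle myosin, which had 863, 1191 and 718 normalised counts against 348 and 336 (log2 fold change 1.40). It is shown with the box in capitals, 161 bases before the start, on the plus strand at chr2:156775214-156775513. A match describes letters in this window and is no evidence of binding.
Myl9: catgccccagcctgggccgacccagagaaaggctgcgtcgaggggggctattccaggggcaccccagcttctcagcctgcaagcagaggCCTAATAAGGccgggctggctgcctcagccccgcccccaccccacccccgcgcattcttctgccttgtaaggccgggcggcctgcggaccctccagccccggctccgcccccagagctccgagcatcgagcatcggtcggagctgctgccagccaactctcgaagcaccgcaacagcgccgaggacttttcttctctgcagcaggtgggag

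Pericyte genes were higher in part. Of 10 tested genes of 12 listed, 5 were higher and none was lower. Summed over the list, they took 0.167 to 0.296% of counts in GFP-high and 0.122 to 0.127% in unsorted libraries. The sums were 0.258 to 0.373% in GFP-low and 0.0936 to 0.115% in GFP-negative libraries, so GFP-low overlapped GFP-high. Kcnj8, the pore subunit that pairs with Abcc9 in a potassium channel of mural cells, had 166, 120 and 222 normalised counts in GFP-high cells against 13 and 11, a log2 fold change of 3.67 ± 0.42 (SE, limma adjusted p = 0.0015). Cspg4, the NG2 proteoglycan, rose by 1.66 and Pdgfrb by 1.31. Rgs5, an abundant pericyte gene, had 2484, 2406 and 4079 against 1877 and 2201 and did not pass (0.51), nor did Notch3 at 67, 71 and 46 against 57 and 63 (0.01). The fifth higher gene, Vtn, is also made by hepatocytes and is taken up with them below. Endothelin receptors rose with the channel: Ednra had 489, 476 and 799 against 45 and 58 normalised counts (log2 fold change 3.46), and Ednrb had 409, 639 and 520 against 103 and 76 (2.53). Together with Kcnj8 and Abcc9 they were the 4 higher genes of 18 tested in the vasoactive list. In the fit of 4 groups 2 of these 4 and 3 of the 5 higher pericyte genes stayed called.

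The list of Cd34-positive fibroblasts was mixed. Of 18 tested genes, 7 were higher and 1 was lower, with a median log2 fold change of 1.29. Cd34 itself had 968, 1758 and 734 normalised counts against 418 and 303, a change of 1.59, and Dpt, Clec3b, C3, Gsn, Fbln1 and Sfrp1 rose by 1.38 to 1.84. Cd81, a tetraspanin used to sort crypt-supporting fibroblasts, had 67, 84 and 32 against 274 and 512 and fell by 2.71. Pi16, Ackr4 and Rspo3 did not pass. The summed level of the list was 1.05 to 1.4% of counts in GFP-high, 0.435 to 0.44% in unsorted, 1.61 to 2.56% in GFP-low and 2.66 to 2.82% in GFP-negative libraries. GFP-high libraries thus lay above unsorted cells and below both other sorts. Without GFP-high library 1, 3 of the 7 higher genes stayed called, and without GFP-high library 3, 4 did. Without the trend and robust steps of the variance model, none of the 7 stayed called.

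**Figure D2:**
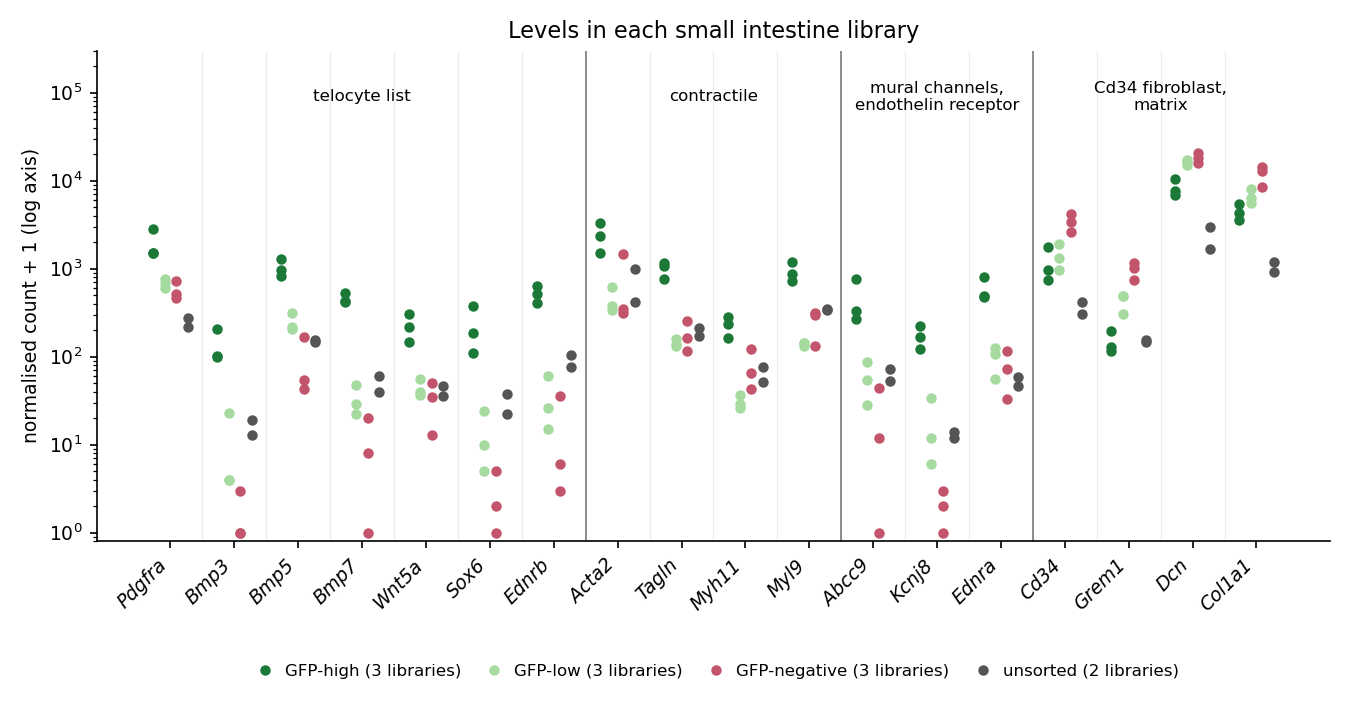
Normalised count plus 1 (log axis) of 18 genes in each library of the 4 small intestine groups, 1 point per library. From Pdgfra to Ednra the GFP-high points lie above the unsorted ones, while Grem1 overlaps them, and Cd34 and Col1a1 are highest in GFP-negative cells.

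The GFP-high cells were next set against the other sorted cells of the small intestine. These comparisons share the GFP-high libraries with the first, so they are given side by side. Against GFP-negative cells, 111 of 12412 tested genes passed (0.894%), 49 higher (0.395%) and 62 lower (0.5%), and 1311 had an unadjusted p under 0.05. Against GFP-low cells, 47 of 12226 passed (0.384%), 45 higher (0.368%) and 2 lower (0.0164%), and 942 had an unadjusted p under 0.05. Pcolce2, an enhancer of procollagen processing, was lower than in GFP-low cells by a log2 fold change of -2.55. Every GFP-high library lay above every GFP-negative one in 7.9% and below it in 8.28% of the genes tested, and above every GFP-low one in 7.5% and below it in 6.12%. Of the telocyte list 7 of 16 tested genes were higher in each, with median log2 fold changes of 2.47 and 2.18. Of the contractile list 4 of 16 and 6 of 15 were higher, and of the pericyte list 2 and 2. The Cd34-positive fibroblast list went the other way against GFP-negative cells, with 7 of 18 lower and none higher (median -1.70), and had no call against GFP-low cells (median -0.71). The calls against GFP-negative cells numbered 59 without GFP-high library 1, 24 without GFP-high library 3 and 58 without GFP-negative library 1. Those against GFP-low cells numbered 25, 28 and 14 without GFP-high library 1, 2 and 3. The authors' deposited FDR was under 0.05 for 71 genes against GFP-negative cells, of which 29 were also called here. It was under 0.05 for 20 genes against GFP-low cells, of which 13 were also called here. All shared calls had the same direction.

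Higher in GFP-high cells than in unsorted, GFP-negative and GFP-low cells alike were 24 genes. Besides Kcnj8, Ednra, Ednrb, Bmp3, Bmp5, Bmp7, Wnt5a, Sox6, Tagln, Myl9, Ltbp2 and Col12a1, they were Adam19, Bean1, Chst1, Col23a1, Dio2, Fxyd6, Gpr45, Il34, Mrvi1, Pcsk6, Tmem158 and Trp53i11. All 24 rest on a call against GFP-low cells, where 45 of 12226 tested genes were higher (0.368%). That number was 0 without trend and robust variance, 20 in the fit of 4 groups and 14 without GFP-high library 3. Bmp7 had 46, 21 and 28 normalised counts in GFP-low and 19, 0 and 7 in GFP-negative cells. Its log2 fold changes against them were 3.88 and 6.39. Kcnj8 had 5, 11 and 33 in GFP-low and 2, 0 and 1 in GFP-negative cells, and Sox6 had 9, 4 and 23 and 4, 0 and 1. For these 3 genes no GFP-low or GFP-negative library reached the level of a GFP-high one. Il34, a ligand of the macrophage receptor Csf1r, had 641, 1033 and 801 normalised counts in GFP-high cells, 165 and 148 in unsorted, 125, 220 and 186 in GFP-low and 158, 189 and 226 in GFP-negative cells. Col12a1, a collagen bound to the surface of fibrils, had 229, 297 and 395 in GFP-high cells, 17 and 43 in unsorted, 73, 98 and 80 in GFP-low and 37, 30 and 45 in GFP-negative cells. Smoc2, a matrix protein known both from stem cells and from stroma, was at 1505, 1059 and 1766 in GFP-high, 372 and 299 in unsorted and 165, 275 and 192 in GFP-low cells. It rose by 2.08 against unsorted and 2.77 against GFP-low cells, and did not pass against GFP-negative cells (1.16).

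Matrix genes were higher. Of 17 tested collagens outside collagen VI, 13 were higher and 1 was lower, of 15 basement membrane genes 11 were higher, and of 22 genes of proteoglycans, elastic fibres and adhesive proteins 15 were higher, with medians of 1.85, 2.04 and 1.97. Col4a5, a basement membrane collagen, had 63, 83 and 109 normalised counts in GFP-high cells against 6 and 6 in unsorted cells. Fn1, fibronectin, had 1770, 2093 and 2026 against 366 and 370. Their log2 fold changes were 3.58 and 2.41, with no overlap. Ogn and Emilin1 rose by 3.01 and 2.68. The lower collagen was Col11a1, at 0 in all GFP-high libraries and at 12 and 10 in unsorted ones, and Col8a1 and Col7a1 did not pass. Every GFP-negative library lay above every GFP-high one for Col1a1, with 12786, 14206 and 8504 normalised counts, and for Dcn, with 20627, 18169 and 15892. Of the basement membrane genes 5 of 11 stayed called without GFP-high library 3, and of the proteoglycan list 14 of 15.

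Among matrix proteases and their inhibitors, 5 of 24 tested genes were higher and 2 lower. Adamdec1, a secreted protease of intestinal stroma, had the highest mean of all genes in GFP-high cells at 27181, 20146 and 32268 normalised counts, against 4161 and 7791 in unsorted cells (log2 fold change 2.19). Mmp2, Mmp10, Mmp19 and Mmp23 rose by 1.75 to 2.03, and without GFP-high library 3, 2 of the 5 stayed called. Mmp9, a gelatinase of leukocytes, had 3, 3 and 0 against 870 and 877 and fell by 8.44. The next highest means in GFP-high cells were those of S100a6, Tuba1a, Hspa5 and Wdr89, none of which passed. S100a6, a calcium-binding protein, was uneven at 10883, 30722 and 10315 normalised counts.

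**Figure D3:**
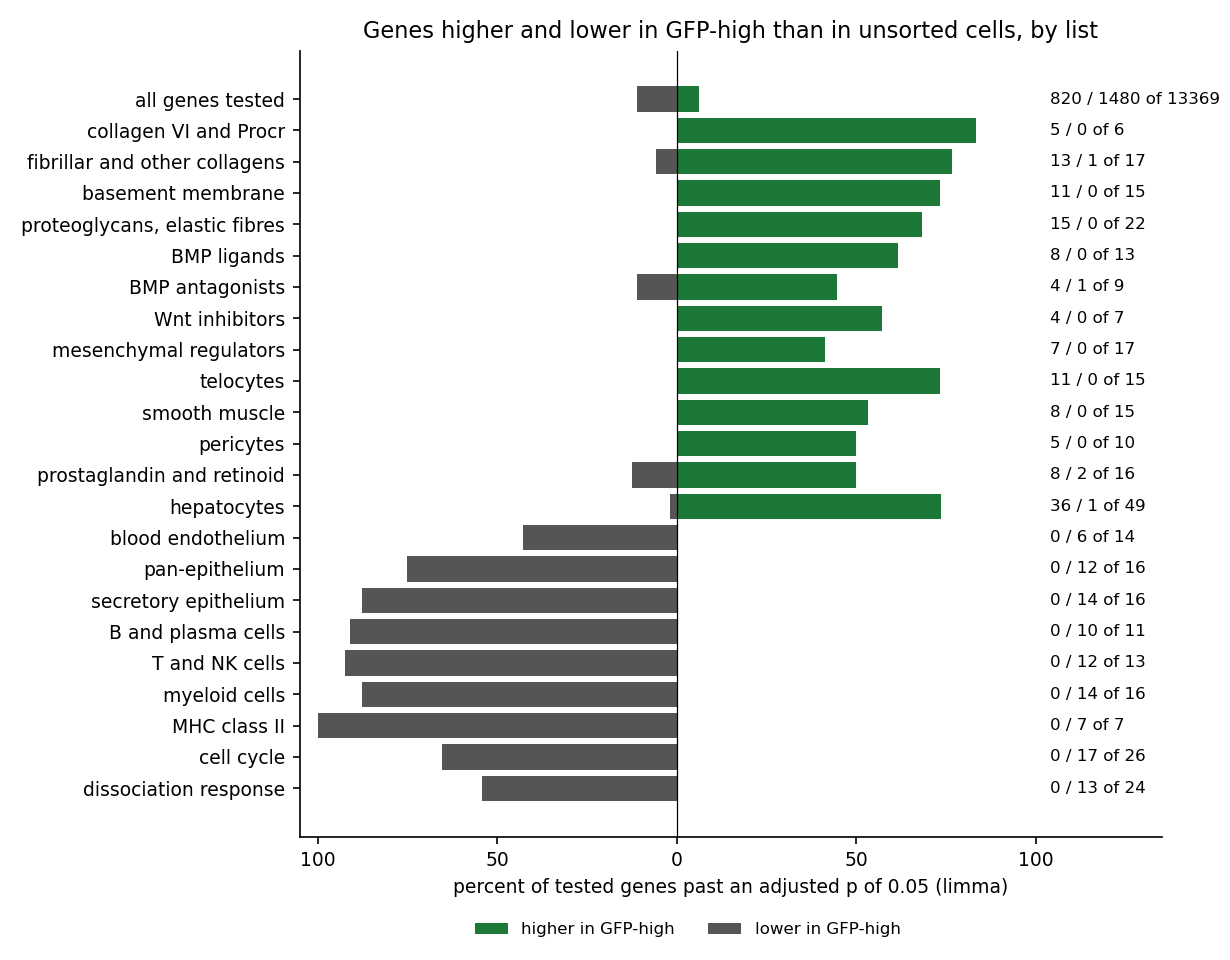
Percent of the tested genes of each list that were higher (to the right) or lower (to the left) in GFP-high than in unsorted cells at a limma adjusted p of 0.05, with the counts at the right. Matrix, telocyte and hepatocyte lists lie to the right and leukocyte and epithelial lists to the left, beside 6.13% higher and 11.1% lower among all genes tested.

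Of 17 tested mesenchymal transcription factors of 20 listed, 7 were higher (Foxf1, Foxf2, Sox6, Tcf21, Tbx2, Meis1 and Zeb1) and none was lower. Tcf21, a regulator of visceral mesenchyme, had 288, 587 and 521 normalised counts against 56 and 118 (2.44) and was not higher than in GFP-negative cells (939, 875 and 520). Of 19 tested Hox genes, which mark position along the body axis, 4 were higher and 1 was lower. Hoxc8 had 910, 1272 and 1533 against 209 and 198 (2.57), and Hoxc4, Hoxc6 and Hoxd8 rose by 1.76, 1.71 and 2.21. Hoxb8 was lower at 2, 0 and 1 against 69 and 38 normalised counts. Of integrins and cadherins, 2 of 22 were higher, the collagen receptor Itga11 (2.54) and the mesenchymal cadherin Cdh11 (2.42), and 4 were lower, Itga4, Itgb7, Cdh1 and Cdh17. Itga4 and Itgb7 form the gut homing receptor of lymphocytes.

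Of 16 tested genes of retinoid and prostaglandin metabolism, 8 were higher and 2 were lower. Aldh1a1, an enzyme that makes retinoic acid, had 2324, 1867 and 2667 normalised counts in GFP-high cells against 296 and 235 in unsorted cells, a log2 fold change of 3.10 ± 0.32 (SE, limma adjusted p = 0.00135). Aldh1a2 and Aldh1a3, enzymes of the same step, rose by 3.04 and 2.26, and Rdh10, of the step before it, by 2.31. Cyp26b1, which degrades retinoic acid, had 27, 86 and 62 against 307 and 382 and fell by 2.68. Prostaglandin genes moved in both directions: Ptgis, the prostacyclin synthase, had 822, 1700 and 656 against 181 and 98 and rose by 2.86, and Ptgs2, the inducible cyclooxygenase, had 65, 71 and 25 against 193 and 315 and fell by 2.31. Of the 8 higher genes, Rbp4 is also abundant in liver, and the part of hepatocyte RNA in this list was not tested.

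Cytokines, chemokines and their adhesion partners had 6 of 25 tested genes higher and 4 lower, beside 6.13% and 11.1% among all genes tested. Ccl11, an attractant of eosinophils, had 855, 650 and 1279 normalised counts against 93 and 218 (2.64), and Cxcl12, Cxcl14, Il33, Il34 and Csf1 were the other higher genes. Lower were Ccl8, Cxcl2 (25, 16 and 5 against 248 and 688), the epithelial chemokine Ccl25 and the vascular addressin Madcam1. Of the 6 higher genes, 3 stayed called without GFP-high library 3. Complement genes were higher in 6 of 10 tested, C1s1, C1ra, C2, C3, C4b and Serping1, with a median log2 fold change of 1.34. These genes are made by fibroblasts and by hepatocytes, and the part of hepatocyte RNA in them was not tested. Without GFP-high library 3 only 1 of the 6 stayed called, and without GFP-high library 1 2 did. Against GFP-low cells 1 of 10 tested complement genes was lower and none higher (median -0.70). Against GFP-negative cells none passed (median -0.54).

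The 12 largest increases among non-overlapping genes of at least 100 normalised counts were Cyp2b10, Cyp2c29, Cyp3a11, Alb, Asgr1, Apoa2, Kng2, Apoc1, Apoa4, Azgp1, Cyp2c54 and Crp. They encode plasma proteins, a hepatocyte receptor and drug-metabolising enzymes, and 7 of them are on a list of 51 hepatocyte genes drawn up after the values were seen. Of 49 tested genes of that list 36 were higher and 1, Cebpa, was lower, with a median log2 fold change of 5.82. Alb, serum albumin, had 9320, 1019 and 6611 normalised counts in GFP-high cells against 129 and 2 in unsorted cells, a log2 fold change of 7.65 ± 1.54 (SE, limma adjusted p = 0.0137). Cyp2b10 had 803, 81 and 403 against 0 and 0, at least 177.7-fold higher at a floor of 3 reads per unsorted library. The GFP-high libraries thus differed from each other by several-fold in these genes.

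The same genes were not particular to GFP-high cells. Summed over the list they took 0.459 to 3.12% of counts in GFP-high, 0.0299 to 0.101% in unsorted, 0.979 to 5.5% in GFP-low and 0.0161 to 2.79% in GFP-negative libraries. Alb had 12397, 2822 and 5292 normalised counts in GFP-low cells and 1500, 5660 and 10 in GFP-negative cells, so 1 sorted library was nearly free of it. None of 49 and 50 tested genes of the list passed against GFP-negative or GFP-low cells, and with the 4 small intestine groups in 1 fit 0 of the 36 stayed called. Without GFP-high library 1, 27 stayed called and without library 3, 22. Genes shared with this list moved with it, namely Apoa1, Apoc3 and Vtn, and so did Rbp4 (807, 268 and 488 against 19 and 13), Fabp1, Apoa4, Scd1 and Fbp1. The enterocyte list had 4 higher and 2 lower genes of 11 tested, and the lipid and sugar list 7 higher and 4 lower of 22 (median -0.46). Of the 4 and 7 higher genes, 1 and 3 stayed called without GFP-high library 3 and none in the fit of 4 groups. The part of hepatocyte RNA in these lists was not tested. With the hepatocyte list left out and libraries scaled to equal totals, an alternative added after the data were seen, 2293 genes were called, 963 higher and 1330 lower.

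Leukocyte genes were lower in GFP-high cells. Igha, the constant chain of immunoglobulin A, was the most abundant gene of unsorted cells at 105529 and 115172 normalised counts and had 3778, 1313 and 250 in GFP-high cells. Its log2 fold change was -6.68 ± 0.97 (SE, limma adjusted p = 0.0041), and Igkc fell by 6.60. Of the B and plasma cell list 10 of 11 tested genes were lower, of the T and NK list 12 of 13 and of the myeloid list 14 of 16, with none higher, and with medians of -6.03, -4.57 and -5.48. Among others, Cd79a, Cd79b, Ms4a1, Cd3e, Cd3g, Cd8a, Gzmb, Il7r and Trac were at 0 in all 3 GFP-high libraries. Cd79b was at least 20.5-fold lower and Il7r at least 20.3-fold lower at a floor of 3 reads per library. Ptprc, the common leukocyte antigen, had 3, 2 and 0 against 175 and 269. All 7 MHC class II genes tested were lower, for example H2-Aa with 152, 32 and 14 against 4227 and 9803 normalised counts. With genes at 0 set to their bounds, the medians of the B, T and MHC class II lists were -5.90, -3.52 and -5.73. Of the lower genes that the fit of 4 groups holds, 1 of 2 T and NK genes, 6 of 6 B and plasma cell genes and 13 of 14 myeloid genes stayed called.

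Epithelial genes were lower as well. Of the pan-epithelial list 12 of 16 tested genes were lower and of the secretory list 14 of 16, with none higher and medians of -4.43 and -5.80 (-4.13 and -5.65 with genes at 0 set to their bounds). Epcam, an adhesion protein of all gut epithelium, had 4, 11 and 2 normalised counts in GFP-high cells against 496 and 330 in unsorted cells. Muc2, the main goblet cell mucin, was at 0 in all GFP-high libraries against 650 and 183, at least 85.5-fold lower. Zg16, a goblet cell lectin, had 1, 2 and 0 against 2855 and 893 and the largest decrease, with a log2 fold change of -9.78. Among the 12 largest decreases were also the epithelial genes Reg3b, Clca1, Dmbt1, Itln1 and Muc13 and the leukocyte genes Mzb1, Ighg2b, Cd83, Mmp9 and Tnfrsf17. Krt18, a keratin also of hepatocytes, did not pass at 271, 31 and 165 against 248 and 56 (-0.08). Of the lower genes that the fit of 4 groups holds, 3 of 7 pan-epithelial and 5 of 6 secretory genes stayed called. Paneth cell defensins are near-identical copies of each other, so that their single values are uncertain.

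Vessel and nerve genes were lower in part. Of 14 tested blood endothelial genes 6 were lower and none was higher, and in 13 all GFP-high libraries lay below both unsorted ones. Of the 5 of them that the fit of 4 groups holds, 3 stayed called. Pecam1, a junction protein, had 25, 3 and 18 against 170 and 197 normalised counts (-3.87), and Flt1, a VEGF receptor, had 56, 6 and 11 against 720 and 322 (-4.84). Cdh5 and Kdr did not pass, as GFP-high library 1 kept 39 and 60 normalised counts where GFP-high library 2 had 0. Of the lymphatic list Ccl21a and Mmrn1 were lower and Pdpn, which fibroblasts also make, was higher (1.83). Of 7 tested genes of glia and neurons 4 were lower, Sox10, S100b, Tubb3 and Ret. Of 4 tested genes of interstitial cells of Cajal, 1 was higher and 1 was lower, and the summed level of the list overlapped, at 81 to 182 normalised counts against 72 to 120. Etv1, a transcription factor, rose by 2.00, and the receptor gene Kit had 6, 0 and 1 against 45 and 27 and fell by 3.90. Neither passed without GFP-high library 3 or in the fit of 4 groups. Krt19, which epithelium also makes, was the single tested gene of the mesothelial list and was lower.

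**Figure D4:**
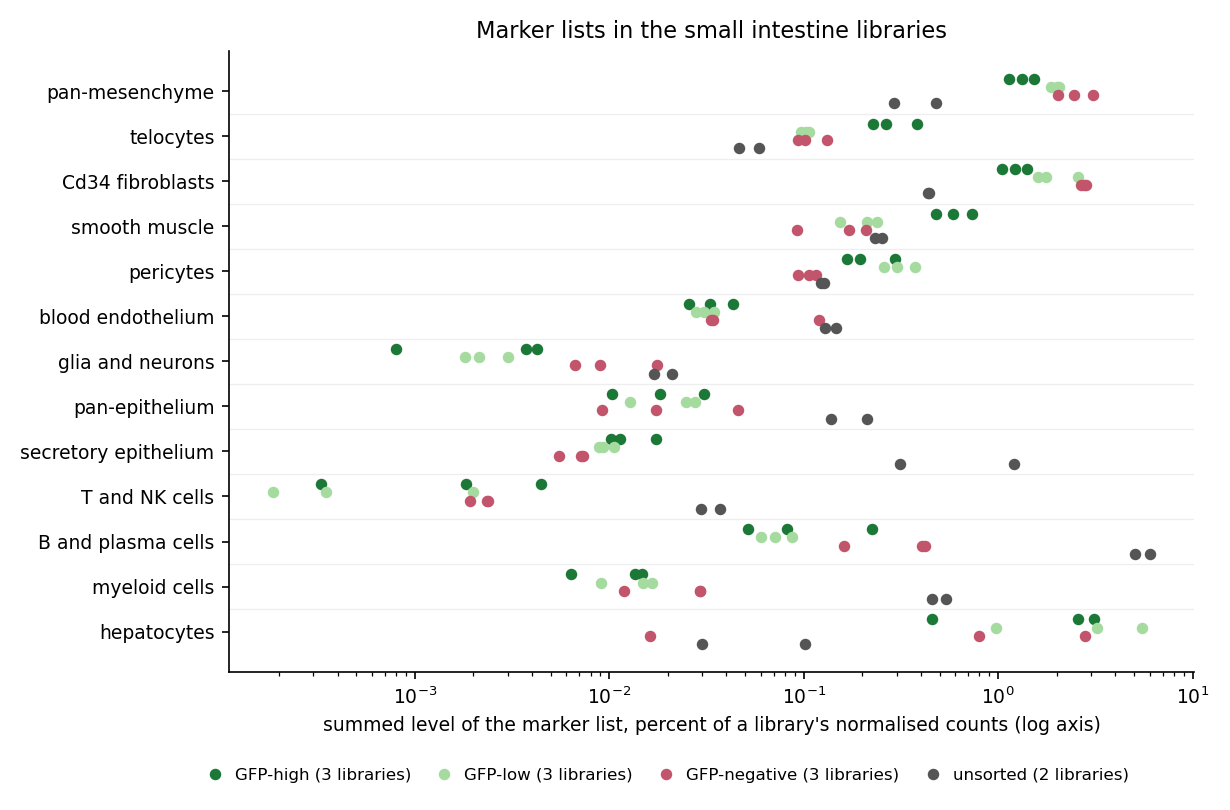
Percent of all normalised counts taken by each of 13 marker lists (log axis) in every small intestine library, 1 point per library. The 3 GFP-high points lie above both unsorted points for telocytes (0.228 to 0.381 against 0.0463 to 0.0591%) and below them for B and plasma cells (0.0515 to 0.223 against 5.03 to 6.05%).

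Immediate early and heat-shock genes, which respond to tissue dissociation, were lower in 13 of 24 tested and higher in none, with a median log2 fold change of -1.78. Jun had 2862, 1875 and 1928 normalised counts in GFP-high cells against 8668 and 7639 in unsorted cells, a log2 fold change of -1.90 ± 0.35 (SE, limma adjusted p = 0.00679). Hspa1a, a heat-shock protein whose copy Hspa1b is hard to separate from it, had 2115, 1264 and 1692 against 9340 and 8340 (-2.42), and Ier3, an immediate early gene, fell by 2.53. Against GFP-negative cells 7 of the 24 genes were lower (median -1.48), and against GFP-low cells none passed (median -0.49). Cell cycle genes were lower in 17 of 26 tested and higher in none (median -2.94 with genes at 0 set to their bounds). Top2a, a topoisomerase of dividing cells, had 13, 19 and 15 against 201 and 187 (-3.56), and 4 of the 16 that the fit of 4 groups holds stayed called.

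Several housekeeping groups had no gene past the test. None of 35 tested ribosomal protein genes, 35 genes of oxidative phosphorylation or 17 of glycolysis and hypoxia passed in either direction, with medians of -0.23, -0.01 and -0.13. Of 17 genes of the unfolded protein response only Herpud1 was lower (-1.68). Of 28 interferon-stimulated genes Iigp1 was higher (1.12) and Irf1 lower (-1.68).

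A similar sort was made in the normal colon, where GFP-positive cells were compared with unsorted cells, 3 libraries each and none shared with the small intestine. Of 14649 genes tested there 3197 passed (21.8%), 1131 higher (7.72%) and 2066 lower (14.1%), and without GFP-positive library 1, 2 or 3 the number called was 2070, 2069 and 2020. Higher in both tissues were 256 genes, which are 31.2% of those of the small intestine and 22.6% of those of the colon, and lower in both were 819 (55.3% and 39.6%). In opposite directions were 27 genes higher in the small intestine and lower in the colon, and 14 the other way. All 17 tested telocyte genes were higher in colon GFP-positive cells, with a median log2 fold change of 2.51 beside 2.39 in the small intestine. Bmp7 changed by 3.33 there and by 3.22 here, and Pdgfra by 2.72 and 2.91. Mural genes were not alike: of the contractile list 2 of 16 were higher and 7 lower in the colon (median -0.56), and of the pericyte list 1 of 12 was higher and 4 were lower (median -0.33). Myh11 changed by -2.78 in the colon and 1.80 in the small intestine, and Rgs5 by -3.90 and 0.51. The difference between the tissues was not tested, since the tissues are in separate tables and the sorts differ (GFP-positive against GFP-high).

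**Figure D5:**
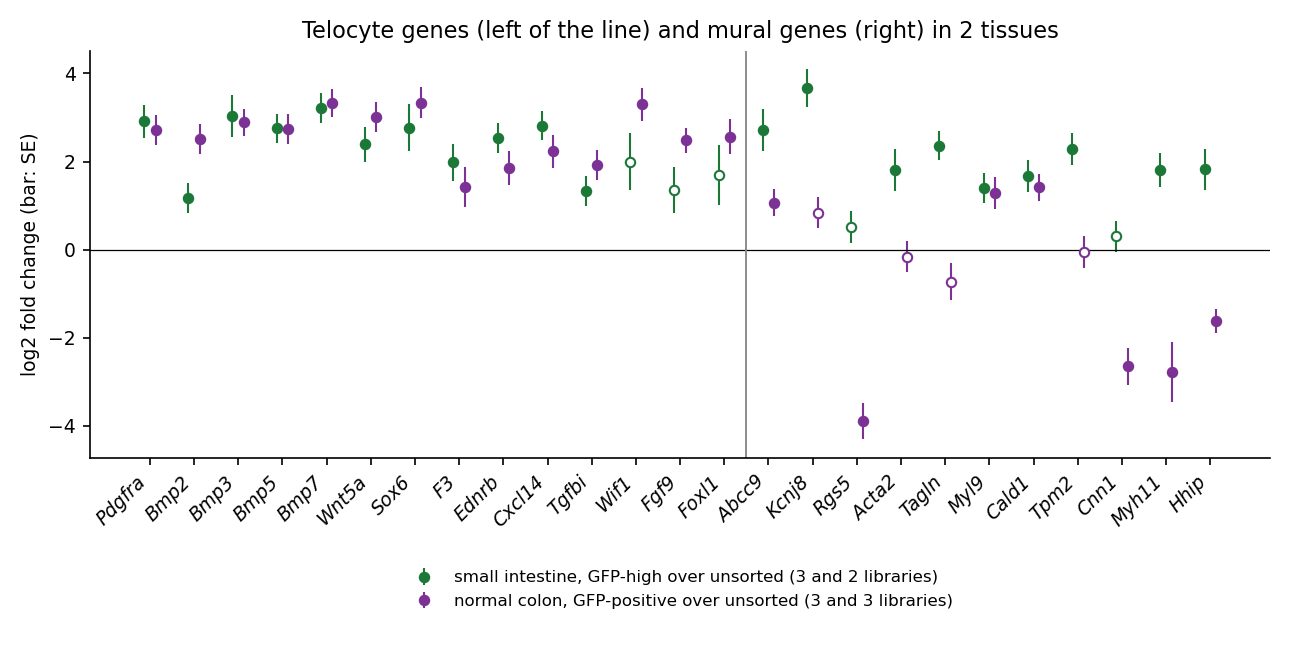
Log2 fold change with its SE (bars) of telocyte genes (left of the line) and mural genes (right) in GFP-high against unsorted cells of the small intestine and in GFP-positive against unsorted cells of the colon, filled where the limma adjusted p was under 0.05 and open where not. Telocyte genes such as Bmp7 (3.22 and 3.33) lie above 0 in both tissues, while Myh11 (1.80 and -2.78) lies on opposite sides of 0.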

How the data were processed

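Total RNA was sequenced by QuantSeq on an Ion Proton, per the labels' protocols, and the submitters' processing notes name TopHat2, Bowtie2, DESeq and mm10. The sources used here give no versions or settings. The authors deposited normalised counts rounded to whole numbers, read here as a score and not as raw counts, with a p-value, an FDR and a log2 fold change per gene from their own comparison. The values of the GFP-high libraries were identical in the 3 deposited tables used for the small intestine, and the colon table was fitted on its own. Depth was estimated from the spacing of low values. For each comparison, log2(value + 1) was fitted with limma 3.58.1 (trend and robust variance, R 4.3.3) on the samples of the groups compared, for genes whose mean reached 10 in 1 group. P-values were adjusted by the Benjamini-Hochberg method over all genes tested, with a threshold of 0.05. A fold change on this scale understates the change of low genes. The code of the fit was tested on simulated data in which all genes shared the same relative spread. Such data hold no uneven libraries, so this test does not bear on the calls made here.

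Named genes were Pdgfra, Abcc9 and Acta2, members of the gene lists (51, plus 2 added), the 12 largest changes each way among called genes with no overlap and a mean of at least 100 in the higher group, the 5 highest means of each group, and the 6 largest increases shared with the other sorts. The comparison and the gene lists were chosen with earlier results of these data known. Alternatives covered the pseudocount, the filter, scaling, the variance model, a fold threshold, the replicate block, left-out libraries and a fit of 4 groups. A few genes were named after their values were seen, as stated beside them. Tables and figures were made with Python 3.11.15, pandas 2.3.3, numpy 2.4.6 and matplotlib 3.10.9. Some genes are not reported here.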

Additional observations from a re-analysis of the deposited data

Results flagged for a closer look

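Among the genes reported here, those below passed in both tissues, with every GFP-high library of the small intestine on one side of the unsorted libraries and every GFP-positive library of the colon on the other side. In each case the difference between the tissues was not tested. The contractile gene Myh11 changed by 1.80 on the log2 scale in the small intestine and -2.78 in the colon, and the Hedgehog decoy receptor Hhip by 1.83 and -1.62. Inhbb, an activin subunit, changed by 2.76 and -2.27. Vtn, made by pericytes and by hepatocytes, changed by 4.97 and -2.77. The alcohol dehydrogenase Adh1 changed by 3.82 and -3.15 and the plasma transport protein Ttr by 6.25 and -5.03, both of which liver makes in quantity. The nuclear RNA Malat1, named after its values were seen, changed by -2.34 and 1.83.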

How the results depend on the processing

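Against unsorted cells, the 2300 calls became 1081 with the 4 small intestine groups in 1 fit and ranged from 0 to 2524 when 1 library was left out, the lone unsorted library then being assumed to vary like the GFP-high ones. The 820 higher genes became 493 without trend and robust variance and ranged from 0 to 935, and the 1480 lower genes became 918 with a mean of at least 50 required, 493 in the fit of 4 groups, and ranged from 0 to 1589. The stricter filter and the fit of 4 groups tested fewer genes, and the rest of the cause was not tested. Against GFP-negative cells, 111 calls became 21 without trend and robust variance, 220 in the fit of 4 groups and 24 to 104 with 1 library left out. Against GFP-low cells, 47 became 0 without trend and robust variance (964 at an unadjusted p under 0.05), 91 with the replicate block, 21 in the fit of 4 groups and 14 to 52 with 1 library left out. The colon count of 3197 ranged from 2020 to 4168. With the replicate number as a block the other counts were 2654 against unsorted, 89 against GFP-negative and 3285 in the colon. Whether the numbers pair the samples could not be decided from so few libraries. The correlation of same-numbered deviations ran from -0.19 to 0.23, and that of other pairs from -0.20 to 0.28. Between GFP-high and GFP-low cells it was 0.08 to 0.23 for the same number and -0.14 to 0.06 for other pairs. Scaling to equal totals moved the median of all genes by 0.12 and gave 2294 calls. Leaving out the hepatocyte list, chosen after seeing the data, gave 2293. No named gene that passed in the main fit or in the alternative changed direction between them. Changes of sign in genes that passed in neither were not counted. Genes with few reads in a library are the least precise.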

Other observations

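Because hepatocyte genes led the increases and varied several-fold between GFP-high libraries, the largest increases among genes whose GFP-high libraries lay within 3-fold of each other were also listed, a rule chosen after the values were seen. Besides further liver genes, these held Rerg, a Ras-related growth inhibitor, at 149, 110 and 183 normalised counts against 3 and 11 in unsorted cells (log2 fold change 4.39). Sv2b, a synaptic vesicle protein, had 130, 305 and 199 against 19 and 12 (3.63), and the septin gene Sept4 had 864, 830 and 1856 against 132 and 108 (3.19). Myh10, a nonmuscle myosin heavy chain, had 114, 156 and 329 against 11 and 28 (3.28). In each of these genes the groups did not overlap.

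Dio2, which activates thyroid hormone, had 346, 549 and 365 normalised counts in GFP-high cells, 91 and 88 in unsorted cells, 0, 9 and 6 in GFP-low cells and 4, 2 and 10 in GFP-negative cells. Its log2 fold changes were 2.19, 6.64 and 6.23, and in the colon sort it did not pass (0.28). Pcsk6, a proprotein convertase, had 913, 1521 and 1760 in GFP-high cells against 183 and 225 in unsorted cells (2.72) and also rose in the colon sort (1.84). Of 19 tested genes of guidance and vessel growth, 3 were higher, the netrin gene Ntn1 (1.87), Slit3 (1.80) and the thrombospondin gene Thbs2 (1.89). Of 8 tested crypt genes 1 was higher, Smoc2, and 2 were lower, Ascl2 at 0, 0 and 0 against 6 and 22 and Olfm4 at 0, 0 and 2 against 20 and 6 normalised counts. Lgr5, the receptor that marks crypt stem cells, overlapped at 21, 15 and 1 against 19 and 10 normalised counts (-0.74).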
